A study of Homo sapiens with 4 samples.

Results

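The genes described here carry glucose through glycolysis to lactate, hold pyruvate back from the mitochondria, or respond to low oxygen. They comprise 23 glycolysis genes with their glucose and lactate transporters, 4 pyruvate dehydrogenase kinases and 13 genes of the hypoxia response. They were chosen by symbol from a list of 40 genes, drawn up with earlier results of these data known. All 40 were found among the 17185 named genes of the arrays. KYSE410, an established line of human oesophageal squamous cell carcinoma, was kept in serum-containing RPMI medium with antibiotics. The cells received PBS as solvent control, TNFα, IL1β or LPS, the cell wall component of Gram-negative bacteria, each for 24 h. The study screened for mRNAs responsive to inflammation, and doses and oxygen tension are not stated in the sources used here. Each condition was read on 1 single-colour array, 4 arrays in all, which leaves every difference without replicate error and without a test.

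In glycolysis, glucose enters through SLC2A transporters, is phosphorylated by hexokinase, committed by phosphofructokinase and split by aldolase, and ends as pyruvate through pyruvate kinase. Lactate dehydrogenase turns pyruvate into lactate, which leaves through SLC16A transporters, while pyruvate dehydrogenase kinases switch off the enzyme that sends pyruvate into the TCA cycle. Hypoxia-inducible factor (HIF) is controlled mainly through its protein, because prolyl hydroxylases of the EGLN family mark the α subunit for destruction when oxygen is present. HIF bound to DNA raises many glycolytic genes as well as pH regulators, mitophagy receptors and its own hydroxylases, and squamous carcinomas are known for high glucose use.

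The words higher and lower in counts mean a gap of 2-fold or more between a pair of arrays, with the brighter one at or over a floor of 8.02 log2 (260.5 on the linear scale), the median over genes of their mean level. Of the 40 members, 38 reached the floor on some array and 33 on all 4. The exceptions on every array were SLC2A3 and PDK3. A value under 2 times the random-sequence control set of the same array counts as near background, and a fold against it is given as "at least". Levels of different genes are not ranked, since each probe set has its own brightness. Array medians lay between 245 and 259.5, and between 8648 and 8730 genes reached the floor on each array. Of 12 squamous epithelial markers, 12 were at the floor with PBS, IL1β and LPS and 11 with TNFα, where CDH1 was below it. Markers of other tissues were also present. Of 10 heart and muscle markers 8 reached the floor on PBS, 7 on TNFα, 8 on IL1β and 4 on LPS, with summed intensities of 40863, 52066, 60857 and 15810. MYH6 and MYH7 were near background on the LPS array and on no other. Of 10 leukocyte markers 3, 5, 7 and 1 were at the floor in the same order, with sums of 9192, 8913, 14362 and 1297. The sums rest largely on single bright probe sets. LYZ alone read 6917, 5600, 10390 and 209, and ACTC1 read 12945 of the muscle sum on LPS. Against PBS, 3 of 10 leukocyte markers (CD3E, CD14 and CD86) and 2 of 10 muscle markers (MYL7 and MB) lay above it on the LPS array. TYROBP, FCER1G and CSF1R were near background on the LPS array only, PTPRC on PBS and LPS, and CD3E and ITGAM on every array. The part of these other transcripts in the LPS differences below was not tested. In RNA from whole cultures, fewer cells of one kind and less RNA per cell cannot be told apart.

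Most glycolysis genes differed little between the 4 arrays. Of 23 members, 2 passed the 2-fold rule between any pair of arrays (8.70%), beside 19.0% of all named genes. That share includes genes that could not pass, since 10271 of the 17185 named genes reached the floor on some array, against 22 of the 23 members. Of the 10271, 3258 passed. The median spread between the highest and the lowest array was 0.51 log2, against 0.80 over all named genes. Over genes at the floor on all 4 arrays those medians were 0.51 for glycolysis and 0.63 for all. SLC2A1, the main glucose importer of epithelial tumours, had intensities of 7338 (PBS), 7732 (TNFα), 8192 (IL1β) and 7691 (LPS), the smallest spread of any member at 1.12-fold. GAPDH, the dehydrogenase often used as a reference gene, read 39484, 36678, 34905 and 33471 in the same order. PKM, pyruvate kinase, read 51972, 44822, 48051 and 35764, lowest with LPS by a log2 difference of -0.54 from PBS. PKM, ALDOA and GAPDH read between 33471 and 51972, and the brightest probe set of an array read 61669 to 64891, which limits the room upward. ALDOA, GAPDH, ENO1, PGK1, TPI1 and LDHA also have processed pseudogenes of near-identical sequence, and array probes cannot be assumed to tell these copies apart.

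**Figure D1:**
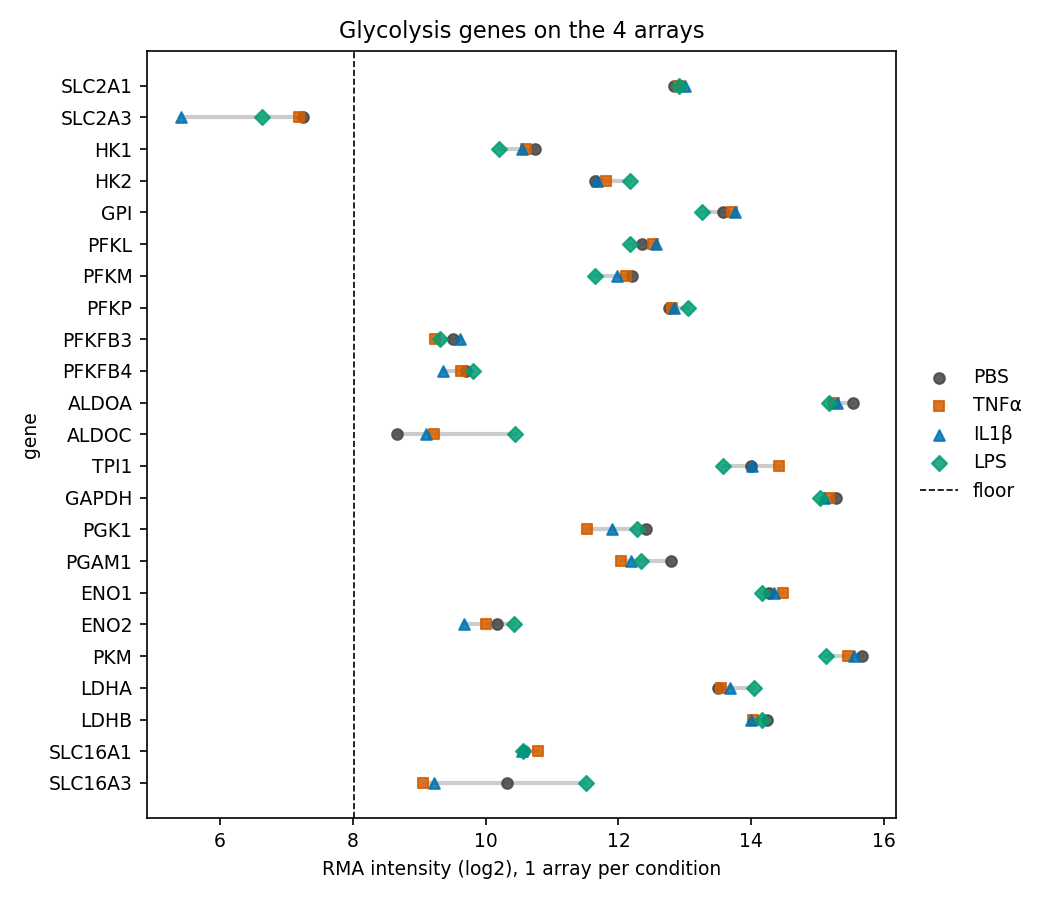
RMA intensity (log2, horizontal axis) of the 23 glycolysis genes in pathway order on the PBS, TNFα, IL1β and LPS arrays, 1 point per array, with grey bars joining the lowest and highest array and a dashed line at the floor of 8.02. Most rows are tight clusters, while SLC16A3 and ALDOC spread by 5.50-fold and 3.44-fold with LPS on the right, and SLC2A3 lies below the floor on all 4 arrays.

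SLC16A3, the lactate exporter MCT4, was the exception at the end of the pathway. Its intensity was 1281 on PBS, 529.9 on TNFα, 598 on IL1β and 2916 on LPS. Both cytokine arrays were thus below PBS, by 2.42-fold and 2.14-fold, and the LPS array was 2.28-fold above it. Measured against the cytokine arrays themselves, LPS was 5.50-fold higher than TNFα and 4.88-fold higher than IL1β, while TNFα and IL1β differed by only -0.17 log2. The other lactate carrier, SLC16A1 (MCT1), stayed between 1489 and 1767 on all 4 arrays. ALDOC, the aldolase form first known from brain, was the other exception and read 405 (PBS), 600.1 (TNFα), 548 (IL1β) and 1394 (LPS). The LPS array was 3.44-fold above PBS, 2.32-fold above TNFα and 2.55-fold above IL1β. ALDOA, the common aldolase, was lowest on the LPS array at 36871, against 47460 with PBS.

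Counted over the list, glycolysis had 0 members higher and 1 lower for TNFα against PBS, where 3.37% of the 9419 named genes at the floor were higher and 3.4% lower. With IL1β it had 0 higher and 1 lower, where 3.13% of 9427 genes were higher and 3.57% lower. The lower member was SLC16A3 both times, and both counts rest on the same PBS array. With LPS there were 2 higher, ALDOC and SLC16A3, and 0 lower, where 8.83% of 9675 genes were higher and 7.42% lower. Of the 23 members 22 could meet the floor in each of these comparisons, so counts of 0 to 2 lie near the shares over all genes. List medians of the log2 difference from PBS were -0.08 (TNFα), -0.11 (IL1β) and -0.12 (LPS), beside -0.03, -0.03 and 0.02 over all genes.

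Below the 2-fold rule, isozymes of hexokinase, phosphofructokinase, enolase and lactate dehydrogenase stood on opposite sides of PBS on the LPS array. HK2, the inducible hexokinase that binds mitochondria, had a log2 difference of 0.51 and HK1, the housekeeping form, -0.54. LDHA, the subunit that favours lactate, read 11610 with PBS and 16851 with LPS (0.54), and LDHB, the heart-type subunit, read 19370 and 18326 (-0.08). The platelet-type phosphofructokinase PFKP differed by 0.28, the muscle type PFKM by -0.56 and the liver type PFKL by -0.18. ENO2, the neuronal enolase, differed by 0.25 and ENO1 by -0.11. Each of these is smaller than 0.70, the SD by which LPS minus PBS differences disagreed between 2 probe sets of one gene (622 genes). PFKFB3 and PFKFB4, which make the activator of phosphofructokinase, stayed within 1.30-fold and 1.36-fold over the 4 arrays.

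A pair of consecutive steps was dimmer on the cytokine arrays, again under 2-fold. PGK1, phosphoglycerate kinase and the first step that yields ATP, read 5436 (PBS), 2963 (TNFα), 3836 (IL1β) and 4990 (LPS). PGAM1, the mutase that follows it, read 7072, 4210, 4659 and 5178. PBS was the highest of the arrays for both genes. TPI1, triosephosphate isomerase, went another way and read 16320, 21950, 16542 and 12253, highest with TNFα. GPI read between 9811 and 13860, and ENO1, the main enolase, between 18274 and 22907. SLC2A3, the neuronal glucose transporter, was below the floor throughout, at 153 (PBS), 146 (TNFα), 42.7 (IL1β) and 99.4 (LPS), the last pair near background.

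The pyruvate dehydrogenase kinases did not move as a group. PDK1, the form that HIF is known to raise, read 843 (PBS), 369 (TNFα), 341 (IL1β) and 649 (LPS). It was 2.28-fold lower with TNFα and 2.47-fold lower with IL1β than with PBS, and the LPS array lay between. PDK4, the form linked to fasting and fat use, read 438, 708, 1035 and 466 in the same order, 2.36-fold higher with IL1β than with PBS and 2.22-fold lower with LPS than with IL1β. PDK2, the widely expressed form, read 274, 232, 307 and 132, and was 2.08-fold lower with LPS than with PBS and 2.33-fold lower than with IL1β. PDK3 was below the floor on every array, with a highest value of 206 on PBS. Counts over these 4 genes were thus 0 higher and 1 lower with TNFα, 1 and 1 with IL1β, and 0 and 1 with LPS, with 3 of the 4 able to meet the floor each time. Over all genes the shares higher and lower were 3.37% and 3.4% with TNFα, 3.13% and 3.57% with IL1β, and 8.83% and 7.42% with LPS, and counts of 0 or 1 among so few genes cannot be set apart from them.

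The hypoxia-response genes had their highest intensity on the LPS array, 13 of 13 members by the probe set that stood for each, beside 38.8% of the 10271 named genes at the floor on some array. The set that stood for a gene was the brightest by mean over all 4 arrays, stimulated arrays included. For HIF1A and P4HA1 the other set was brighter with PBS, at 1066 against 900 and 1157 against 961. The second probe set of P4HA1 was highest with PBS and read 1073 with LPS. Against PBS 7 of 13 were higher and 0 lower (shares of 8.83% and 7.42% over all genes), and the list median was 1.36 log2 beside 0.02 over all genes. ANKRD37, CA12 and BNIP3L reached the floor on the LPS array only, so they could be counted only as higher. Among the 10 members at the floor on the PBS array itself 4 were higher, HIF1A, EPAS1, NDRG1 and ADM, beside 4.75% of the 8730 named genes at the floor there. HIF1A is in both counts through the chosen set only, as its other set differed from PBS by 0.13 log2 with LPS.

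**Figure D2:**
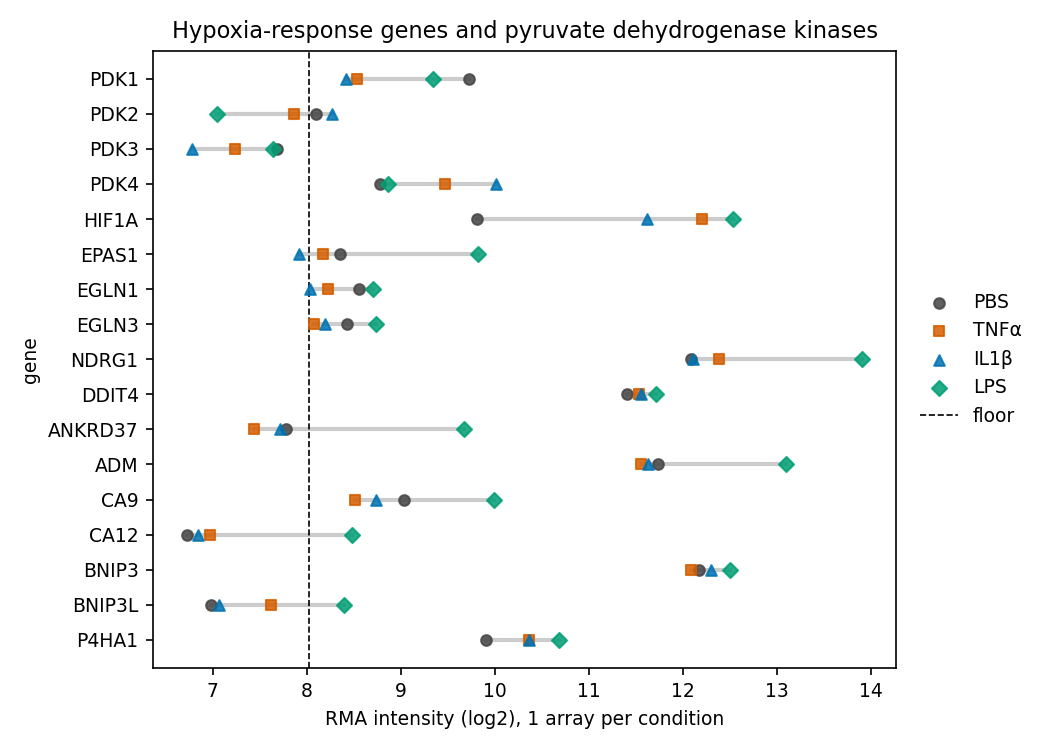
RMA intensity (log2, horizontal axis) of the 4 pyruvate dehydrogenase kinases and the 13 hypoxia-response genes, 1 point per array, with grey bars from the lowest to the highest array and a dashed line at the floor of 8.02. The LPS diamond is the rightmost point for each of the 13 hypoxia-response genes and for none of the 4 kinases, and PBS, TNFα and IL1β lie close together for NDRG1, ADM and ANKRD37.

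Among HIF target genes, NDRG1, a stress-induced differentiation gene, read 4333 (PBS), 5351 (TNFα), 4406 (IL1β) and 15341 (LPS). The LPS array was 3.54-fold above PBS, 2.87-fold above TNFα and 3.48-fold above IL1β. ADM, the vasodilator peptide adrenomedullin, read 3414, 3010, 3162 and 8777, 2.57-fold above PBS with LPS. For both genes the 3 other arrays were close to each other, and LPS stood alone. ANKRD37, a small ankyrin repeat protein whose gene is a strong HIF target, read 219, 174, 209 and 817, 3.73-fold above PBS with LPS, 4.71-fold above TNFα and 3.91-fold above IL1β.

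The carbonic anhydrases, which keep the inside of hypoxic tumour cells from turning acid, shared that pattern. CA9 read 525 (PBS), 364 (TNFα), 426 (IL1β) and 1019 (LPS). Its difference of 0.96 from PBS was just under the 2-fold rule, and it was 2.80-fold higher with LPS than with TNFα and 2.39-fold higher than with IL1β. CA12 read 106, 125, 114 and 358, at least 3.31-fold higher with LPS than with PBS, where it was near background. Of the mitophagy receptors, BNIP3L (NIX) read 126, 196, 134 and 336, 2.67-fold higher with LPS than with PBS. BNIP3 was bright and nearly even at 4596, 4332, 5026 and 5789. DDIT4 (REDD1), an inhibitor of mTORC1, was also nearly even, between 2704 and 3347. P4HA1, a collagen prolyl hydroxylase subunit, read 961, 1314, 1318 and 1644 on the probe set used here.

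Of the HIF α subunits, EPAS1 (HIF-2α) read 326 (PBS), 288 (TNFα), 241 (IL1β) and 904 (LPS). It was 2.77-fold higher with LPS than with PBS, 3.13-fold higher than with TNFα and 3.75-fold higher than with IL1β. HIF1A had a pattern of its own and read 899.9, 4713, 3139 and 5907. All 3 stimulated arrays lay above PBS, by 5.24-fold with TNFα, 3.49-fold with IL1β and 6.56-fold with LPS, and it was the only hypoxia-response member at least 2-fold different from PBS with either cytokine. The stimulated arrays differed from each other by at most 0.91 log2 for this gene, so these differences share the low value on the single PBS array. The hydroxylases that tag HIF changed less. EGLN1 (PHD2), the main oxygen sensor, read 375, 299, 261 and 415, and EGLN3 (PHD3), itself a HIF target, read 344, 270.1, 292 and 427.

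The HIF1A difference came from 1 of its 2 probe sets. The set for transcript NM_001530, the full-length form, gave the values above, with log2 differences from PBS of 2.39, 1.80 and 2.71. The set for NM_181054, a variant that encodes a shorter protein, read 1066 (PBS), 1026 (TNFα), 1118 (IL1β) and 1166 (LPS), with differences of -0.06, 0.07 and 0.13. Where the probes lie on each transcript is not analysed here, and whether the sets measure different transcripts or one of them misreads was not tested. The sets of P4HA1 also disagreed, with LPS minus PBS differences of 0.77 for NM_000917 and -0.11 for NM_001017962. The other 38 members had 1 probe set each, so they carry no such check.

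**Figure D3:**
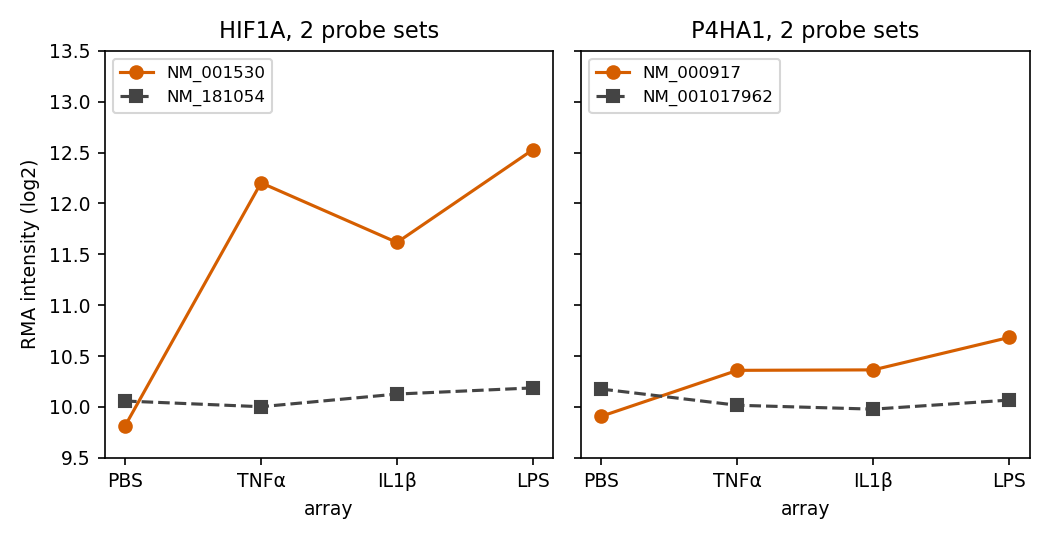
RMA intensity (log2, vertical axis) on the 4 arrays for both probe sets of HIF1A (left) and of P4HA1 (right), 1 point per array, lines joining the points of a set. The HIF1A set NM_001530 climbs from 9.81 with PBS to 12.53 with LPS while NM_181054 stays between 10.00 and 10.19, and the P4HA1 sets part by less.

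With the cytokines the hypoxia-response list stood where the bulk of genes did. TNFα gave 1 of 13 members higher and 0 lower, and IL1β the same counts, each time HIF1A alone, with 10 of 13 members able to meet the floor. The background shares were those given above, 3.37% and 3.4% with TNFα and 3.13% and 3.57% with IL1β. List medians were -0.09 and 0.02. Both comparisons use the same PBS array and do not back each other up. CA9, EGLN1, EGLN3, EPAS1, ANKRD37 and ADM were slightly dimmer than PBS on both cytokine arrays, with -0.53 for CA9 with TNFα as the lowest log2 difference.

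Comparisons between the stimulated arrays leave PBS out. LPS minus TNFα gave 6 of 13 hypoxia-response members higher and 0 lower, with a median of 0.78, where 9.93% of 9655 genes were higher and 7.09% lower. LPS minus IL1β gave 7 higher and 0 lower, with a median of 1.26, where 10.5% of 9707 genes were higher and 7.45% lower. EPAS1, NDRG1, ANKRD37, ADM, CA9 and CA12 were in both counts, and BNIP3L (0.78 against TNFα) only in the second. Some members could meet the floor only through the LPS array, ANKRD37, CA12 and BNIP3L in both comparisons and EPAS1 against IL1β. Among the 10 members at the floor on the TNFα array itself 4 were higher with LPS, beside 5.57% of all genes at the floor there, and among the 9 at the floor on the IL1β array 3 were, beside 5.66%. Both comparisons and the one with PBS share the single LPS array. Glycolysis had 2 of 23 members higher and 0 lower in each, ALDOC and SLC16A3, with medians of -0.01 and 0.02. TNFα minus IL1β gave 0 higher and 0 lower in the glycolysis, kinase and hypoxia lists, where 1.87% of 9270 genes were higher and 1.74% lower.

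**Figure D4:**
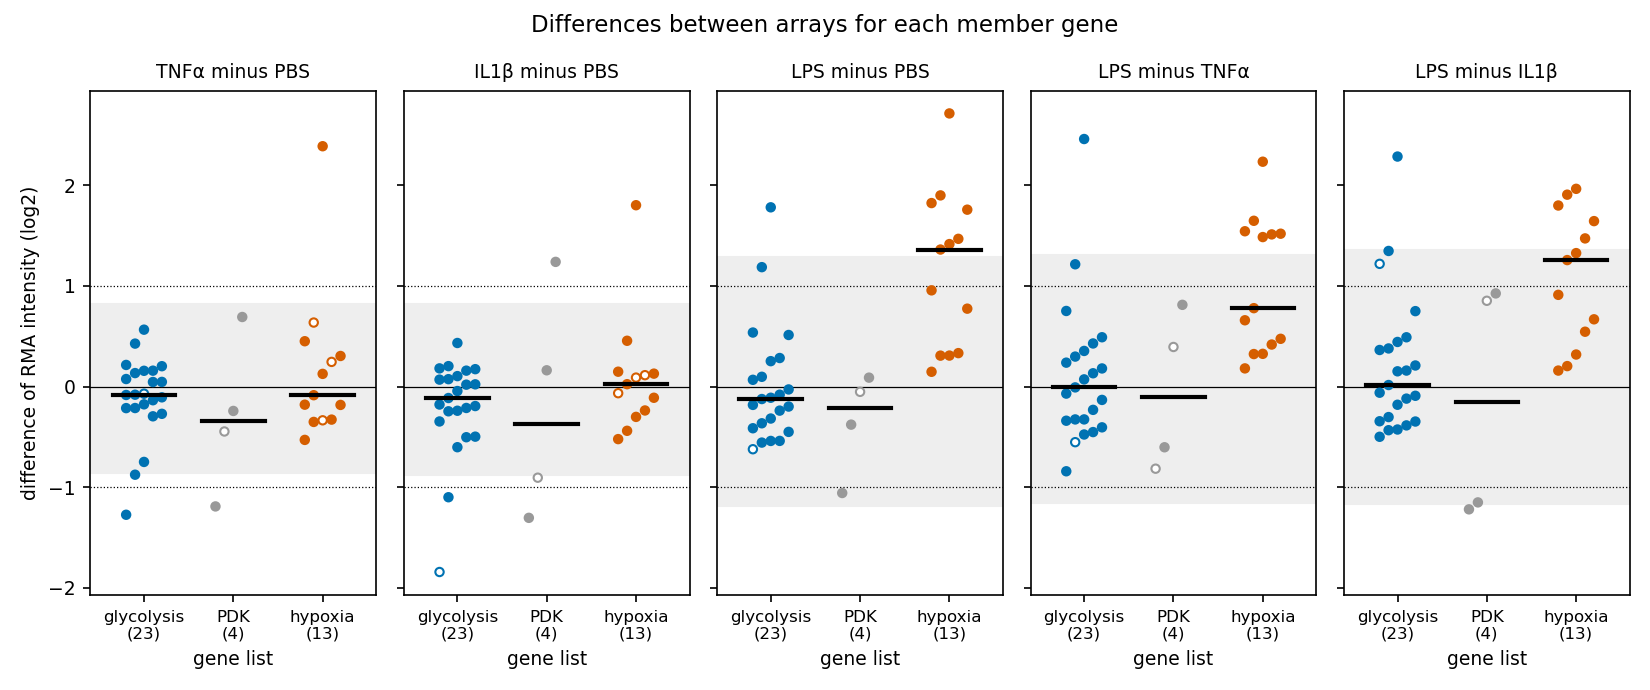
Difference of RMA intensity (log2, vertical axis) of each member for 5 pairs of arrays, by gene list, with thick black bars at list medians, dotted lines at 2-fold, open circles where neither array reached the floor, and grey bands from the 5th to the 95th percentile of named genes at the floor. The 13 hypoxia-response points lie above 0 in the 3 LPS panels, with medians of 1.36, 0.78 and 1.26, while glycolysis medians stay between -0.12 and 0.02 in all 5.

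HIF binds a short core sequence, ACGTG or GCGTG, and the promoters of the members were read for it, whatever their LPS difference. RefSeq windows (GRCh38.p14) were matched for 36 of the 40 members, and SLC2A3, SLC16A1, NDRG1 and BNIP3L were unmatched. The 250 bases before the annotated start were searched on both strands, and a CACGTG palindrome, which holds ACGTG on each strand, counts once for each. Of the 36 windows 15 (41.7%) held ACGTG, beside 18.5% of all 35116 windows and 21.1% of the 13780 windows of named genes. GCGTG was in 14 (38.9%), beside 32.2% and 39.6%. Member windows were also richer in G and C, with a median of 69.2% against 62.8% for named genes, and the part of this in the counts was not tested. Of the 11 hypoxia-response windows 10 held at least 1 of the motifs (90.9%) and EGLN3 none. The shares were 51.1% of the windows of named genes and 43.2% of all windows. This list was picked for known links to HIF, so its motif count is no independent result. Its windows had a median of 70% G and C, and the part of that was not tested either. Set beside the LPS difference, the motifs ran opposite ways. ACGTG was in 2 of the 7 matched members that were higher with LPS than with PBS (28.6%) and in 13 of the 29 others (44.8%). GCGTG was in 5 of the 7 (71.4%) and in 9 of the 29 (31.0%), and either motif in 6 (85.7%) and 17 (58.6%). These differences were not tested.

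The windows below show that range, with motif letters on either strand in capitals, written 5′ to 3′ along the gene. ANKRD37 lies at chr4:185396591-185396840 on the plus strand and holds ACGTG on both strands at a palindrome 162 to 157 bases before the start, and again at 143 to 139. CA9 lies at chr9:35673678-35673927 on the plus strand, with a match on the opposite strand 18 to 14 bases before the start. ADM lies at chr11:10304823-10305072 on the plus strand and holds 1 GCGTG. ALDOC lies at chr17:28576896-28577145 on the minus strand and holds 3 matches of ACGTG and 2 of GCGTG. LDHA, at chr11:18394313-18394562 on the plus strand, holds 5 matches of ACGTG, the most of any matched member, and its intensity with LPS was 1.45-fold that with PBS. A match is a letter pattern only and shows no binding.
ANKRD37: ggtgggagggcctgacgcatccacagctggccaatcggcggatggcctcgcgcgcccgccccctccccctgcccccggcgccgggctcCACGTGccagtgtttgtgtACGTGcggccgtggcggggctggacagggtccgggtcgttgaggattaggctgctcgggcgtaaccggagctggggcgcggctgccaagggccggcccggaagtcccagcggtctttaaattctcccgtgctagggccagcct
CA9: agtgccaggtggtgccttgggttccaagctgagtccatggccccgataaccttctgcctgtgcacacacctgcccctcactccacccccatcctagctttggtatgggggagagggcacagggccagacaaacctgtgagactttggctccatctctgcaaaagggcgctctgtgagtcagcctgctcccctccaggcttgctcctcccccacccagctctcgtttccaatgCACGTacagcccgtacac
ADM: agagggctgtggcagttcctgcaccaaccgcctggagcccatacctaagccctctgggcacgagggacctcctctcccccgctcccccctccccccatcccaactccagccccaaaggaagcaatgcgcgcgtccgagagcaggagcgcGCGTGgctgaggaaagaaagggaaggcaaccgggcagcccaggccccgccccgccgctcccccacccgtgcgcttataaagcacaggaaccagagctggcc
ALDOC: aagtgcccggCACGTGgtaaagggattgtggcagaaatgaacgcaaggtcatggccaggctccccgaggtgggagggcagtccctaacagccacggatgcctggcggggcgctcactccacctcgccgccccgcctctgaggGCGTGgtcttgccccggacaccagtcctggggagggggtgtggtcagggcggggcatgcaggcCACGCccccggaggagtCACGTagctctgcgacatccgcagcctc
LDHA: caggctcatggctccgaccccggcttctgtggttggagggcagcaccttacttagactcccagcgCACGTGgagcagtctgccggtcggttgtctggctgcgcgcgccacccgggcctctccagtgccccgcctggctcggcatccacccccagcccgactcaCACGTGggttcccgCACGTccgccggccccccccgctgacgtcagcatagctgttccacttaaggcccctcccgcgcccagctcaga

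Other genes of the HIF pathway were read for comparison, from a list of 33 regulators and targets, all of them measured. With LPS 7 were higher than with PBS and 0 lower, with 28 able to meet the floor. The shares over all genes were 8.83% and 7.42%. The list median was 0.47 log2 beside 0.02 over all genes. By sign alone 23 of the 33 lay above PBS and 10 below, beside 51.4% of all named genes above it. These signs include genes below the floor on both arrays. The lowest log2 difference was -0.95. CXCR4, a chemokine receptor and HIF target, read 185 (PBS), 454 (TNFα), 734 (IL1β) and 1235 (LPS). EFNA1, an ephrin ligand, read 949.6, 3079, 5750 and 5062 in the same order. Both were at least 2-fold higher with every stimulus, so the low PBS value is shared by their differences. Also higher with LPS than with PBS were HILPDA, IGFBP3, P4HA2 and VEGFA, of which HILPDA and IGFBP3 were also higher than on both cytokine arrays and VEGFA than on neither. With TNFα 4 were higher, HIF3A among them, and 1 lower, with a median of -0.0035. With IL1β 3 were higher and 0 lower, with a median of 0.02. The shares over all genes were 3.37% and 3.4% with TNFα and 3.13% and 3.57% with IL1β, with medians of -0.03 for both. VHL, the ligase subunit that takes hydroxylated HIF to degradation, was the lower gene with TNFα, at 221 against 447 with PBS, and read 238 with IL1β and 385 with LPS.

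A further list of 20 isoforms of glycolytic enzymes and transporters from other tissues held mostly dim genes, with 10 to 11 able to meet the floor against PBS. TNFα gave 0 higher and 1 lower, IL1β 1 higher and 3 lower, and LPS 2 higher and 1 lower, with medians of -0.17, -0.15 and -0.62, beside -0.03, -0.03 and 0.02 over all genes. The shares of all genes higher and lower were again 3.37% and 3.4%, 3.13% and 3.57%, and 8.83% and 7.42%. HKDC1, a hexokinase-like enzyme, read 506 (PBS), 110.5 (TNFα), 112 (IL1β) and 308 (LPS), at least 4.53-fold lower with TNFα and 4.50-fold lower with IL1β. HK3, the hexokinase of white blood cells, read 176 (PBS), 200 (TNFα), 439.7 (IL1β) and 86.6 (LPS). Of 10 leukocyte markers 3, 5, 7 and 1 were at the floor on these arrays, and a link was not tested. ENO3, the muscle enolase, was 2.23-fold lower with IL1β, and its second probe set differed by -0.70 from PBS. SLC2A6, a lysosomal hexose transporter known to respond to inflammation, read 262 (PBS), 321 (TNFα), 497 (IL1β) and 588 (LPS), 2.24-fold above PBS with LPS. PFKFB2 was the other isoform higher with LPS.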

How the data were processed

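Total RNA of 4 cultures was copied to cDNA, labelled with Cy3 and hybridised to NimbleGen arrays, 1 per condition, per the labels' protocols. The authors deposited intensity on a linear scale, summarised by RMA per the names of the deposited tables, usually from 3 probes per set. For the RMA step, software, settings and genome build were not given in the sources used here. RMA equalises arrays, so a change shared by most genes is removed. The deposited series value table held the same intensity for all 45033 probe sets on all 4 arrays.

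Transcript accessions were matched without versions to RefSeq symbols (GRCh38.p14), and 18866 probe sets (41.9%) matched 1 symbol, giving 17185 genes. The brightest probe set by mean log2 over the 4 arrays stood for a gene. Differences of log2 intensity between 2 arrays were described by size (2-fold, brighter value at the floor). The rule was tried on simulated data with noise taken from TNFα minus IL1β alone, the narrowest pair. Its 5th to 95th percentiles were -0.65 to 0.66, against -1.19 to 1.29 for LPS minus PBS, so the simulation does not cover the LPS comparisons. Members with any 2-fold difference, and the main enzyme or regulator of each step, were given on all arrays. Further pathway genes were named by largest difference, up to 3 each way per list and treatment. The members, lists, printed promoters and the near-background limit were chosen with earlier results of these data known. Alternatives were other floors, probe set means, loess, repeated quantile normalization, the series table, an offset, other thresholds and the removal of members whose mean fell below the floor. Tables were computed with pandas 2.3.3 and numpy 2.4.6 under Python 3.11.15, loess with statsmodels 0.14.6, and plots with matplotlib 3.10.9. Some genes of the further lists are not reported here by name.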

Additional observations from a re-analysis of the deposited data

How the results depend on the processing

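With 1 array per condition the counts and medians have no error, and calls near 2-fold depend on the threshold. For glycolysis members lower than PBS, 1 with either cytokine, a threshold of 1.5-fold gave 3 with TNFα and 2 with IL1β, a threshold of 3-fold gave 0 with each, and no floor gave 2 with IL1β. At 3-fold the higher counts with LPS were 1 for glycolysis and 4 for hypoxia response. The single hypoxia-response member higher with a cytokine, HIF1A, rests on its probe set. The second sets of HIF1A and P4HA1, tried after seeing the data, gave 0 with TNFα and 0 with IL1β, and the mean of all probe sets gave 0 with IL1β. All other counts lay within 1.5 times the values above. All list medians moved by less than the SD between probe sets of a gene, also with the mean of the TNFα and IL1β arrays in place of PBS. That alternative was added after seeing the data. The SD is for single genes (0.55 to 0.70 log2 for the comparisons with PBS), so it is a loose limit for a list median. The hypoxia-response median with LPS was 0.96 once members whose mean lay below the floor were left out, against 1.36. Of 600 member differences recomputed 4 moved by more than that SD, and 0 of the differences past 2-fold changed sign. The 4 were HIF1A with each stimulus under probe set means and SLC2A3 with IL1β under the offset. Many of the 600 could not move. The series table held the same intensities, and probe set means change only members with more than 1 set. No scaling moved the median of all genes by over 0.1 log2, and the 13 hypoxia-response members stayed above 0 with LPS under each, though P4HA1 read by its second probe set did not (-0.11). Dim members such as CA12, BNIP3L, SLC2A3 and PDK3 are limited by signal close to background. No paired analysis was possible because the labels carry no replicate numbers and each condition has 1 array.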

Other observations

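Among 13 genes of the pentose phosphate pathway and gluconeogenesis 3 were higher with LPS than with PBS and 0 lower, with 11 able to meet the floor. The shares over all genes were 8.83% and 7.42%, and the difference from them was not tested. PCK2, the mitochondrial enzyme that makes phosphoenolpyruvate, read 3196 with LPS against 538 with PBS, 5.94-fold higher, and its second probe set differed by 0.79 log2. FBP1, a gluconeogenic phosphatase, was at least 4.13-fold higher with LPS.

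Of 10 glycogen genes 2 were higher and 1 lower with LPS than with PBS, with a median of 0.55. Beside shares of 8.83% and 7.42% over all genes, counts among so few genes cannot be set apart. PPP1R3C, which targets a phosphatase to glycogen and is a known HIF target, read 249 (PBS), 404 (TNFα), 277 (IL1β) and 899 (LPS). UGP2, which makes the glucose donor for glycogen, was 2.38-fold higher with LPS, and PYGM, muscle glycogen phosphorylase, 2.28-fold lower. Either cytokine gave 0 glycogen genes higher and 1 lower, PYGM with TNFα and PGM2 with IL1β. The shares over all genes higher and lower were 3.37% and 3.4% with TNFα and 3.13% and 3.57% with IL1β. Of 26 genes of mitochondrial pyruvate use and the TCA cycle 0 were higher with any stimulus than with PBS. With either cytokine 23 could meet the floor, and with LPS 26. Over all genes 3.37% (TNFα), 3.13% (IL1β) and 8.83% (LPS) were higher, and counts of 0 among so few genes cannot be set apart from these. With LPS 2 were lower, near the 7.42% of all genes. They were citrate synthase CS (2.09-fold) and the pyruvate dehydrogenase phosphatase PDP2 (2.39-fold). PDP2 was also 2.30-fold lower with IL1β.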
